A study of Mus musculus with 21 samples.

Results

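The 10 genes described here encode the MHC class II antigen presentation pathway of the mouse: the chains of the class II molecules (H2-Aa, H2-Ab1, H2-Eb1 and H2-Ea-ps), the invariant chain (Cd74), the peptide-loading chaperones (H2-DMa, H2-DMb1, H2-DMb2 and H2-Oa) and the transactivator Ciita. They are 10 of the 49315 gene identifiers in the count tables. The genes were listed by function with earlier results of these data known. They were also selected on measured values, their CPM (counts per 1000000 counts of a library) in the libraries labelled Tfap2b knockout at 3 weeks, so the levels there are given as a description with no test.

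The study concerned AP-2α and AP-2β, transcription factors that are the products of Tfap2a and Tfap2b, in mouse epidermis. RNA from epidermal sheets was sequenced after removal of ribosomal RNA, in 21 samples that formed 7 groups of 3, and in 13 files, all from 3 weeks, every gene was listed at 0. The remaining 8 libraries were used: 2 labelled K14CreTfap2bfl/fl at 3 weeks (called labelled Tfap2b knockout), 3 labelled K14CreTfap2afl/flTfap2bfl/fl at 6 months (called dKO-labelled libraries) and 3 strain-specific wild-type controls at 6 months. In K14Cre mice the keratin 14 promoter, active in basal keratinocytes, drives Cre recombinase, so floxed alleles are recombined in those cells and their progeny and not in resident leukocytes. Which strain the mice were, and whether the controls carried Cre or floxed alleles, is not given in the sources used here.

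MHC class II molecules are pairs of an α and a β chain that display peptides from endocytosed proteins to CD4+ T cells. Newly made pairs are held by the invariant chain, lose it to lysosomal proteases and exchange its last fragment for peptide with the help of H2-DM, which H2-O restrains. Ciita switches the genes on together by binding factors assembled on the X and Y boxes of their promoters. In resting epidermis the main cells that present antigen this way are Langerhans cells, the dendritic-like leukocytes that carry langerin (Cd207).

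The libraries held 11318181 to 17746284 counts. Tfap2a was at 140.3 to 210.1 CPM in control libraries and 213.2 to 309.2 CPM in the dKO-labelled libraries, and Tfap2b at 57.3 to 86.6 and 53.8 to 57.2 CPM. Neither passed the test described below (log2 fold changes 0.47 and -0.43, edgeR adjusted p = 0.118 and 0.111), though Tfap2a passed as higher without control replicate 3 (0.72). In the libraries labelled Tfap2b knockout Tfap2b was at 44.9 and 71.7 CPM. Neither gene was lost at the level of whole-gene counts, counts per exon were not analysed here, and all directions below are those of the labels. Control replicates 1 and 2 stood apart in counts over odorant and vomeronasal receptor genes, at 1.61 and 3.19 counts per exonic kb against 0.097 to 0.195 in the other 6 libraries. Replicate 1 of the libraries labelled Tfap2b knockout stood apart in dermal fibroblast and endothelial markers, which summed to 2540 and 375.4 CPM against 11.7 to 155.8 and 0.32 to 18.8 CPM elsewhere.

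The promoters of 4 of the genes are shown because they hold matches to the X and Y box sequences given below. H2-Eb1 was also far apart between the ages while H2-Aa overlapped, and H2-DMb1 and H2-DMb2 are close copies. The promoters come from RefSeq (GRCm38.p6), run 5′ to 3′ on the strand of the gene and cover 250 bases before to 50 bases after an annotated start. Promoters of 6 of the 10 genes were examined. Cd74 was left out of the search, and H2-Ab1, H2-Ea-ps and Ciita had no promoter there. Capitals mark matches to the Y box CTGATTGG or its core ATTGG and to the X box core ACNGATG, all searched on both strands, with the core lying inside the Y box.
H2-Aa (chr17:34287774-34288073, minus strand): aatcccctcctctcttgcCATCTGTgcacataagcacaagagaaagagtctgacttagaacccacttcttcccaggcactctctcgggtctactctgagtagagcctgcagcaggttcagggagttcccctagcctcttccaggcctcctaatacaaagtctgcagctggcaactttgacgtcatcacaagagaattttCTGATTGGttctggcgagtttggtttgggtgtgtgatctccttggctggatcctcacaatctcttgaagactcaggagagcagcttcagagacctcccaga
H2-Eb1 (chr17:34305617-34305916, plus strand): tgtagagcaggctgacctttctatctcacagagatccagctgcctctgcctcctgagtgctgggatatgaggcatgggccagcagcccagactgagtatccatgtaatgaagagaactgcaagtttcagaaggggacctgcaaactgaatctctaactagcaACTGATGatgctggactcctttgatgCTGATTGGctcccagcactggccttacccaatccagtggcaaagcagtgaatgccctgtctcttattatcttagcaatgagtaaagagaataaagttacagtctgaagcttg
H2-DMb1 (chr17:34152941-34153240, plus strand): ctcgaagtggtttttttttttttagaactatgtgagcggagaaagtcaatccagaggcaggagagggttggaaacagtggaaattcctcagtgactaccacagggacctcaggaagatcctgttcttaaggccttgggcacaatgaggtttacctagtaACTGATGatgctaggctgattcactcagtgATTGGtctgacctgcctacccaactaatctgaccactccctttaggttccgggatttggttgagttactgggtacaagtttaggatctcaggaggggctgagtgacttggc
H2-DMb2 (chr17:34144999-34145298, plus strand): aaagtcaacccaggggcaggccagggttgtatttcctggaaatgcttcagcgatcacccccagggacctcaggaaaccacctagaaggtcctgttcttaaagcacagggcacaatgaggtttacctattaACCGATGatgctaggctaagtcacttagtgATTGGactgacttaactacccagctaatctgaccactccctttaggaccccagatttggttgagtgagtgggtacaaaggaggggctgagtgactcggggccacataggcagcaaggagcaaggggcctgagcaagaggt

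In H2-Eb1 the Y box began 62 bases and the X core 88 bases before the start. In H2-DMb1 the Y core began 61 bases and the X core 91 bases before it, and in H2-DMb2 the distances were 90 and 120 bases. In H2-Aa the Y box began 51 bases before the start, and the X core match lay on the other strand, 232 bases before it. A further Y core on the other strand of the H2-Eb1 promoter, 35 bases before the start, is left in lower case. Of the 6 genes, 5 had both cores and 3 (H2-Aa, H2-Eb1 and H2-Oa) had the whole Y box, where 3.65% and 4.1% of all 32851 promoters of the same length did. The gene without both cores was H2-DMa. Its promoters searched begin at 34122582 and 34125268, apart from the start of the counted gene at 34135182, and no promoter at that start was searched. Both cores were counted on either strand and at any distance from each other. The H2-Oa matches began 46 (Y box) and 137 bases (X core) before the start. Single cores were common, with the Y core in 37.4% and the X core in 9.85% of promoters. A match describes the letters and does not show a binding site.

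Class II transcripts were found at very different levels in the control epidermis. Per kb of exon, Cd74 was at 170.9 ± 32.7 CPM (SD, n = 3 for this and the next values), H2-Aa at 148.7 ± 28.7 and H2-Ab1 at 84.7 ± 10.1. H2-Ea-ps followed at 18.1 ± 4.74 and H2-DMa at 8.51 ± 1.41 CPM per kb. H2-DMb2 (4.37 ± 1.83), H2-Eb1 (4.18 ± 1.57), H2-DMb1 (3.999 ± 1.10) and Ciita (2.84 ± 1.19) overlapped from library to library and could not be ordered, and H2-Oa was lowest at 0.684 ± 0.0997. Cd74 and H2-Aa overlapped between libraries, although each control held more Cd74 than H2-Aa, and the levels of H2-Aa, H2-Ab1, H2-Ea-ps and H2-DMa did not overlap. By these counts both chains of the E molecule, H2-Ea-ps (α) and H2-Eb1 (β), thus lay below both chains of the A molecule in the controls. Whether differences between the alleles of these mice and the reference genome changed the counts was not tested.

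The mean levels per kb in the dKO-labelled libraries ran in nearly the same order, from Cd74 (146.2 CPM per kb), H2-Aa (100.3), H2-Ab1 (56.5) and H2-Ea-ps (8.27) to H2-Oa (0.135). In the libraries labelled Tfap2b knockout, from 3 weeks, H2-Eb1 stood among the abundant chains at a mean of 101.9 CPM per kb, beside H2-Aa at 124.1 and H2-Ab1 at 114.9. H2-Ea-ps (0 and 1 count) and H2-Oa (4 and 1 counts) were the lowest there and could not be ordered.

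**Figure D1:**
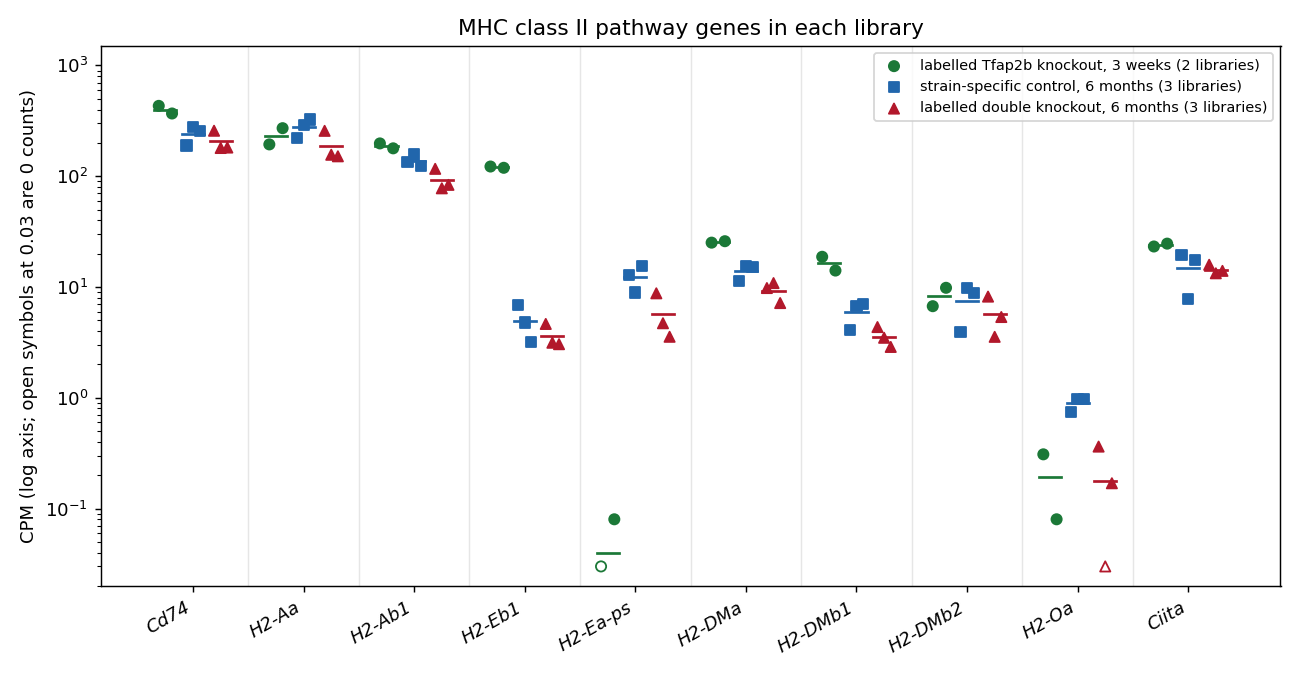
CPM of the 10 genes (log axis) in each of the 8 libraries, with a line at each group mean and open symbols for a count of 0. H2-Eb1 sits above 119 CPM in both 3-week libraries and below 7 CPM in all 6 libraries from 6 months, while H2-Ea-ps shows the opposite order.

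At 6 months, 2 class II genes were lower in the dKO-labelled libraries than in the controls and none was higher: H2-Ab1, the β chain of the A molecule, and H2-Ea-ps, the α chain of E. The remaining 8 did not pass the test, although all 10 fitted log2 fold changes were negative, with a median of -0.65 against -0.035 over all 17755 genes tested. Across those genes 14.9% passed an adjusted p of 0.05 in either direction and 8.59% as lower. In 4 of the 10 (H2-Ab1, H2-Ea-ps, H2-DMa and H2-Oa) every dKO-labelled library lay below every control, as did 16.3% of all genes tested. The list was named with results of this contrast known and its members share cells and a transactivator, so its counts and median are a description.

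H2-Ab1 (ENSMUSG00000073421, chromosome 17, 34263209 to 34269418, plus strand, GRCm38) was at 134.7, 156.7 and 124.4 CPM in control libraries and at 116.5, 77.7 and 83.5 CPM in the dKO-labelled libraries. The groups did not overlap, replicate 1 of the latter lying just under the lowest control. The means were 138.6 ± 16.5 and 92.6 ± 20.9 CPM (SD, n = 3 each), and the log2 fold change was -0.66 (edgeR adjusted p = 0.0342, SE 0.18). The call rested on the libraries included: the adjusted p rose above 0.05 without control replicate 1 or 2 and without replicate 2 or 3 of the dKO-labelled libraries, at log2 fold changes of -0.67, -0.56, -0.51 and -0.56.

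H2-Ea-ps (ENSMUSG00000036322, chromosome 17, 34342933 to 34344643, minus strand) is annotated as a polymorphic pseudogene, meaning that it is intact in some inbred strains and disrupted in others. It held 12.9, 8.92 and 15.4 CPM in the controls (155, 101 and 236 counts) and 8.76, 4.70 and 3.55 CPM in the dKO-labelled libraries (121, 69 and 63 counts). Replicate 1 of the latter again came closest to the controls. The log2 fold change was -1.19 (edgeR adjusted p = 0.0480, SE 0.36), and the call was kept only when replicate 1 of the dKO-labelled libraries was the library left out. Without any other single library it was -1.38 to -0.92, and with total counts as the scaling -1.13, neither past the threshold.

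The partner chains gave values in the same direction that did not pass. H2-Aa (ENSMUSG00000036594, 34282744 to 34287827, minus strand), the α chain of the A molecule, was at 219.6, 291.8 and 324.6 CPM in control libraries and at 256.7, 156.1 and 151.2 CPM in the dKO-labelled libraries. Its groups overlapped through replicate 1 of the latter (log2 fold change -0.64, SE 0.22, edgeR adjusted p = 0.0765). It passed with DESeq2 (-0.64) and when low counts were not filtered out (-0.54), at adjusted p of 0.0315 and 0.0321. H2-Eb1 (ENSMUSG00000060586, 34305877 to 34316199, plus strand) was at 6.89, 4.77 and 3.19 CPM in control libraries and 4.63, 3.14 and 3.04 CPM in the others (-0.52, SE 0.39, adjusted p = 0.374).

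Cd74 (ENSMUSG00000024610, chromosome 18, 60803848 to 60812646, plus strand), the invariant chain, was at 189.6, 279.0 and 254.2 CPM in control libraries and at 257.2, 179.7 and 181.4 CPM in the dKO-labelled libraries. The groups overlapped across most of their range (-0.30, SE 0.18, edgeR adjusted p = 0.288). Ciita (ENSMUSG00000022504, chromosome 16, 10488178 to 10527564, plus strand) was at 19.4, 7.78 and 17.5 CPM in control libraries and at 15.9, 13.3 and 13.97 CPM in the others. The control with the least Ciita, replicate 2, was also the one with the most receptor counts, and the log2 fold change of -0.13 (SE 0.31, adjusted p = 0.802) turned to 0.11 without control replicate 1 and 0.079 without control replicate 3. Ciita overlaps Dexi on the opposite strand, which held 3051 counts, and the use of strand in counting is not given in the sources used here.

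Among the chaperones, H2-DMa (ENSMUSG00000037649, 34135182 to 34139101, plus strand), the α chain of H2-DM, was at 11.3, 15.4 and 15.2 CPM in control libraries and 9.78, 10.8 and 7.16 CPM in the dKO-labelled libraries. Its groups did not overlap, and the test was not passed (-0.66, SE 0.24, edgeR adjusted p = 0.0898). The β chain genes H2-DMb1 (34153072 to 34160230, plus strand) and H2-DMb2 (34143307 to 34151553, plus strand) overlapped between the groups, at 4.07 to 7.03 against 2.87 to 4.35 CPM and 3.90 to 9.72 against 3.55 to 8.18 CPM. Their log2 fold changes were -0.79 (SE 0.35, adjusted p = 0.138) and -0.46 (SE 0.41, adjusted p = 0.462). The longest transcripts of H2-DMb1 and H2-DMb2 share 179 windows of 100 bases, 13.7% and 12.9% of each, so counts between them are uncertain. No other pair of the 10 shared such a window.

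H2-Oa (ENSMUSG00000024334, 34092340 to 34095234, plus strand), the α chain of H2-O, was barely detected: 9, 11 and 15 counts in control libraries and 5, 0 and 3 in the dKO-labelled libraries. It entered the test only through the controls, and its fitted log2 fold change of -1.77 (edgeR adjusted p = 0.109, SE 0.95) depends on the prior count. The density over receptor genes would give 2.11 and 4.19 of the 9 and 11 counts in control replicates 1 and 2. Reads of the antisense gene BC051537 (13 counts in all) cannot be told from its own without strand. H2-Oa is best known from B cells, whose 5 markers summed to 12.5, 10.5 and 1.04 CPM in control libraries. In the dKO-labelled libraries they summed to 0.338 to 1.23 CPM, with Pax5 at 0 in replicates 2 and 3 and Cd79b in replicate 1. The high sums were those of control replicates 1 and 2, which also had the high receptor density, and no background was subtracted from the sums. Control replicate 3, with the most H2-Oa counts (15), had the lowest control sum. The part of B cells and of the background in the result was not tested.

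**Figure D2:**
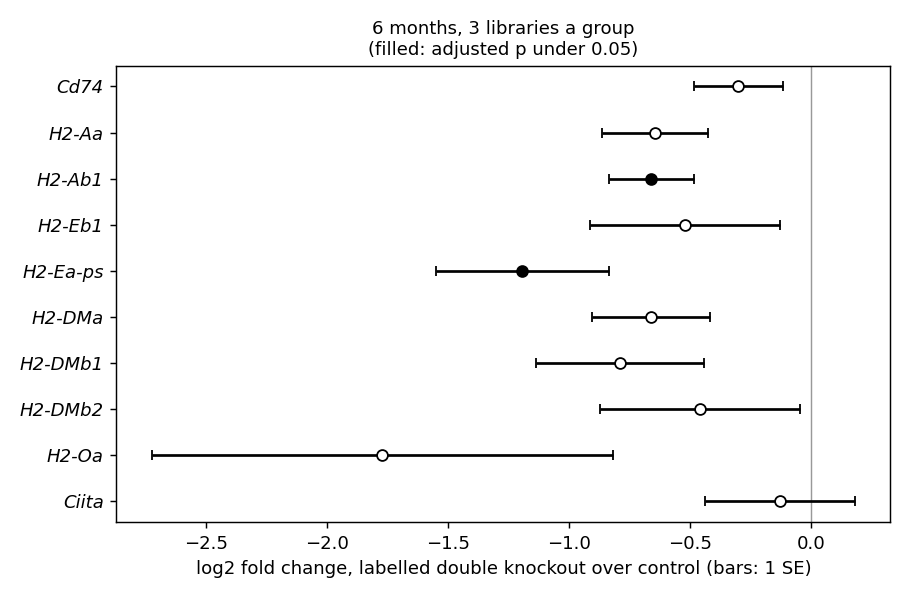
Log2 fold changes at 6 months, dKO-labelled over control (3 libraries each), with bars of 1 SE and filled points for an edgeR adjusted p under 0.05. All 10 points lie below 0, and H2-Ab1 (-0.66) and H2-Ea-ps (-1.19) are filled.

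Class II counts were also set against those of Cd207 in the same library, a ratio that depends on neither depth nor scaling. Cd207 itself did not differ between the groups by the test, at 24.3 ± 2.93 CPM in control libraries and 24.5 ± 8.12 CPM in the dKO-labelled libraries (log2 fold change -0.066, SE 0.23, edgeR adjusted p = 0.871). Per Cd207 count there were 10.2, 12.2 and 11.8 counts of H2-Aa in control libraries and 7.59, 7.46 and 8.03 in the dKO-labelled libraries, so these did not overlap. For H2-Ab1 the ratios were 6.24, 6.57 and 4.54 against 3.44, 3.71 and 4.44, again without overlap, and for H2-Ea-ps 0.374 to 0.596 against 0.189 to 0.259. H2-DMa was also apart, narrowly, at 0.523 to 0.644 against 0.289 to 0.518. Those of Cd74 (8.78 to 11.7 against 7.61 to 9.64) and H2-Eb1 (0.116 to 0.319 against 0.137 to 0.162) overlapped. Set against the general leukocyte gene Ptprc instead, H2-Aa was again apart (4.78 to 7.58 against 2.69 to 4.33 per count), and H2-Ab1 overlapped (1.83 to 4.65 against 1.34 to 2.39). The share of all genes apart in such a ratio was not computed, and in CPM 16.3% of all genes tested lay lower without overlap. These ratios are a description, and in bulk samples fewer cells of a type and less RNA per cell cannot be told apart.

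**Figure D3:**
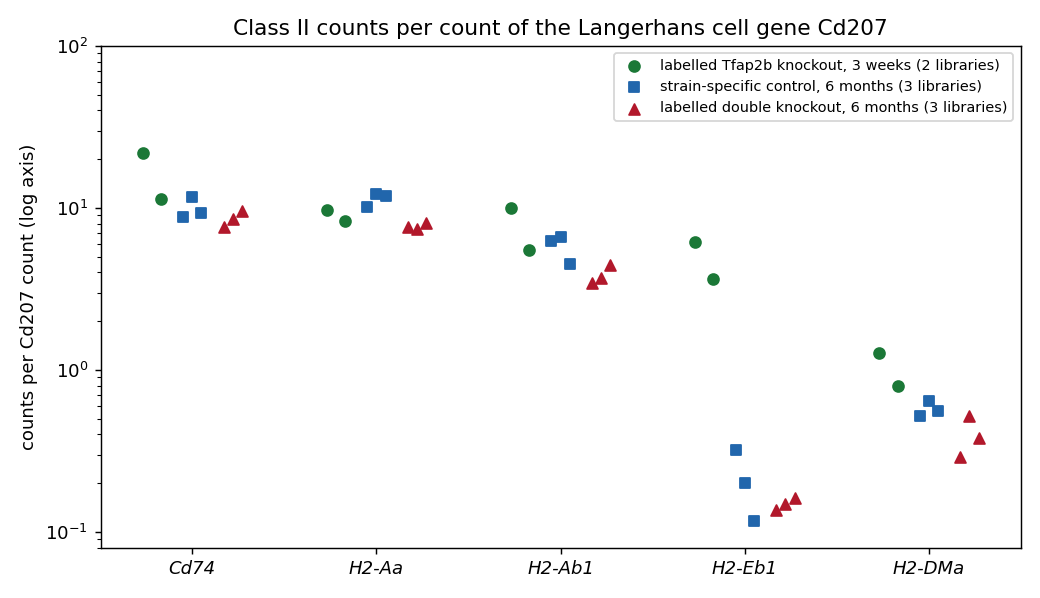
Counts of 5 class II genes per count of Cd207 (log axis) in each library. For H2-Aa, H2-Ab1 and H2-DMa the 3 dKO-labelled libraries lie below the 3 controls. H2-Eb1 is at 3.65 and 6.15 in the 3-week libraries against 0.116 to 0.319 in the others.

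Other markers of cells that can carry class II moved with the groups in part. Of 7 Langerhans cell markers, 6 were tested, 1 was higher in the dKO-labelled libraries (Tgfbr2, 0.64, edgeR adjusted p = 0.0350) and none lower, and no marker was at 0 in any library. Their sums, mostly Tgfbr2, Il1r2 and Mfge8, which keratinocytes can also express, were 233.9 to 247.8 CPM in control libraries and 286.3 to 349.9 CPM in the others. Of 7 dendritic cell markers, 4 were tested and Zbtb46, a factor of conventional dendritic cells, was lower (7.06, 6.63 and 7.03 against 1.38, 2.66 and 0.845 CPM, log2 fold change -2.08, adjusted p = 0.0132). The sums were 12.7 to 25.2 and 9.27 to 11.6 CPM, with Cd209a at 0 in control replicate 3 and replicates 2 and 3 of the dKO-labelled libraries, and Flt3 and Clec9a at 0 in replicate 2 of the latter. Zbtb46 did not pass without dKO-labelled replicate 1 (-1.93), nor Tgfbr2 without control replicate 2 (0.56) or any 1 dKO-labelled replicate (0.62 to 0.74).

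Of 8 macrophage markers, 5 were tested and Mrc1 was lower (-2.22, edgeR adjusted p = 0.0484), with sums of 20.7 to 38.5 and 18.5 to 23.7 CPM and C1qc at 0 in control replicate 3 and replicate 1 of the dKO-labelled libraries. The Mrc1 call was kept only when control replicate 3 was the library left out, and was otherwise lost at -2.41 to -1.47. Mrc1 was low, at means of 1.88 CPM in control libraries and 0.315 CPM in the dKO-labelled libraries. It had no value with at least 10 counts in every library or with a background set by the receptor genes subtracted. None of the 2 B cell markers tested or the 4 leukocyte markers passed, and Ptprc, the general leukocyte gene, was at 51.4 ± 20.2 and 54.9 ± 18.6 CPM. Of 4 keratinocyte markers tested, 3 were higher in the dKO-labelled libraries: Krt14 (1230 to 4236 CPM), Krt5 (2615 to 5129 CPM) and Krt1 (1279 to 2774 CPM), at edgeR adjusted p of 0.000969, 0.0086 and 0.0081. Krt10, the most abundant, was at 5841 ± 630.1 and 6310 ± 1349 CPM (log2 fold change 0.037, adjusted p = 0.904), and all transcripts share the same total. Thy1 was higher and Cd8a lower among 7 T cell markers tested, 6 of which had negative log2 fold changes. Among 4 neutrophil markers tested, Cxcr2 was higher (means of 0.363 and 33.2 CPM). S100a8 (6.14), S100a9 (5.3) and Csf3r (-0.75) did not pass, and Ly6g was too low to be tested. Of 5 fibroblast markers 3 collagen genes were lower (sums of 51.6 to 155.8 and 11.7 to 22.9 CPM), and none of 3 endothelial markers passed. The part of these cells and transcripts in the class II values was not tested.

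The genes that surround class II in the pathway were read from 7 lists named by function. Those for peptide and invariant chain proteolysis and for costimulation each had 1 gene higher and none lower. Among the 9 genes of that first list the lysosomal protease Ctsb rose from 190.4 to 305.8 CPM (log2 fold change 0.61, SE 0.15, edgeR adjusted p = 0.03002), and the median of the list was -0.19. Ctss, the protease that completes invariant chain cleavage, was at 9.68 ± 1.92 and 8.61 ± 3.38 CPM. Of 4 costimulation genes tested out of 6, Icosl, the ligand of ICOS on T cells, rose from 3.29 to 8.47 CPM (1.25, SE 0.31, adjusted p = 0.0258). Ctsb did not pass without control replicate 2 (0.60) or dKO-labelled replicate 2 (0.63) or 3 (0.56). Icosl did not pass without control replicate 1 (1.18) or 2 (1.20) or dKO-labelled replicate 1 (1.23) or 3 (1.16).

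Among the interferon γ signalling genes, Irf1, a factor that acts on the Ciita promoter, fell. It was at 19.8, 19.3 and 18.8 CPM in the 3 controls against 5.07, 6.68 and 10.9 CPM in the dKO-labelled libraries (log2 fold change -1.40, edgeR adjusted p = 0.0133, SE 0.29). The groups did not overlap, and Irf1 did not pass without replicate 1 (-1.14) or 2 (-1.28) of the dKO-labelled libraries.

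Of the 3 genes for surface turnover, 2 fell. March8, a membrane ubiquitin ligase that targets class II for degradation, was at 97.2, 63.4 and 72.9 CPM in control libraries and 34.6, 44.8 and 33.4 CPM in the dKO-labelled libraries (-1.13, SE 0.20, edgeR adjusted p = 0.00767), and it did not pass without replicate 1 of the latter (-1.02). Cd83, which stabilises class II at the surface, was at 11.2, 13.96 and 9.96 CPM against 3.26, 1.09 and 1.80 CPM (-2.52, SE 0.40, adjusted p = 0.00409). No gene passed in the lists of promoter factors (7 tested, median 0.071, Creb1 the most abundant at 95.6 and 105.8 CPM) and of class I presentation (11 tested, median -0.23). The most abundant class I gene, B2m, was at 1812 ± 606.2 and 1324 ± 122.4 CPM (adjusted p = 0.140). H2-Ob, the β chain of H2-O, was at 5.93 ± 2.31 and 3.38 ± 0.626 CPM (adjusted p = 0.140), and H2-Eb2 was too low to be tested.

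The 3-week libraries labelled Tfap2b knockout differed from the 6-month libraries most in the 2 genes of the E molecule, in opposite directions. H2-Eb1 was at 122.3 and 119.1 CPM there, against 3.04 to 6.89 CPM in the 6 libraries from 6 months, a ratio of means of 28.2. The lowest 3-week value was 17.3 times the highest value from 6 months. H2-Ea-ps, at 3.55 to 15.4 CPM in all 6, had 0 and 1 count in the 3-week libraries, where a count of 0 allows up to 0.231 CPM (counting error only). These values chose the genes for attention and carry no test. The ages also differ in labelled genotype, no 3-week control library held counts, and age, genotype and strain cannot be told apart.

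Pooled over libraries, H2-Eb1 had 3076 counts at 3 weeks and 350 at 6 months, and H2-Ea-ps had 1 and 745. For neither gene did the ages overlap.

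**Figure D4:**
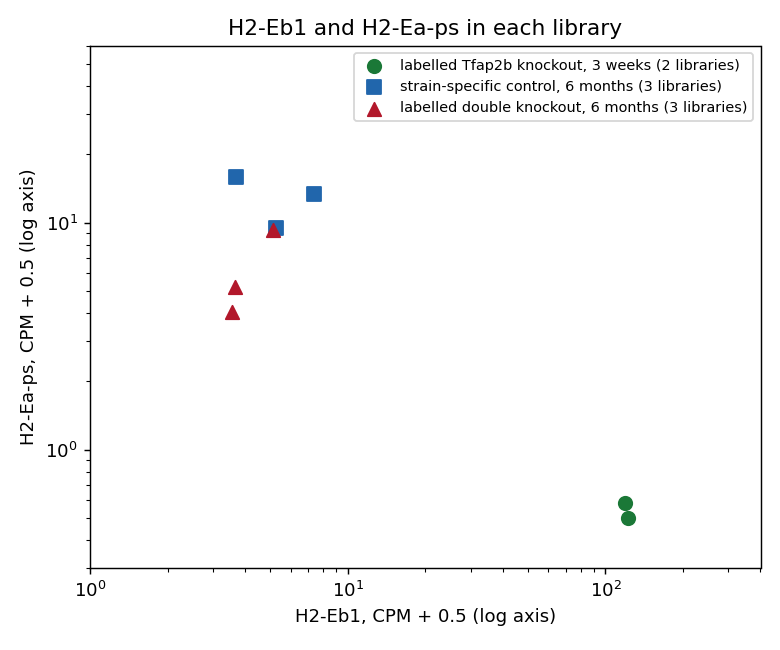
H2-Eb1 against H2-Ea-ps in the 8 libraries, both as CPM + 0.5 on log axes. The 2 libraries labelled Tfap2b knockout from 3 weeks lie at high H2-Eb1 and next to no H2-Ea-ps, apart from all 6 libraries from 6 months.

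The ratio of the 2 E chains within a library made the same split. It was 1.87, 1.87 and 4.82 counts of H2-Ea-ps per count of H2-Eb1 in the controls, 1.17 to 1.89 in the dKO-labelled libraries, and 0 and 0.000671 in the 3-week libraries. H2-Ab1 counts per H2-Eb1 count were 1.62 and 1.499 at 3 weeks and 19.5 to 39.0 in the 6 other libraries. The chains of the A molecule also differed in ratio between the ages, by less, with 0.980 and 1.52 counts of H2-Aa per count of H2-Ab1 at 3 weeks, 1.63 to 2.61 in the controls and 1.81 to 2.20 in the dKO-labelled libraries.

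The other 8 genes had 3-week to 6-month ratios of mean CPM from 0.361 to 3.45. Both 3-week libraries lay above all 6 others in 6 of the 10 genes (H2-Ab1, H2-Eb1, Cd74, H2-DMa, H2-DMb1 and Ciita), below them in H2-Ea-ps, and overlapped them in H2-Aa, H2-DMb2 and H2-Oa. Of 16997 genes with a mean of at least 1 CPM, 5.12% lay above and 7.2% below in this way, and since the choice of genes drew on these values nothing is read from the counts. With replicate 2 alone the counts were 7 above and 1 below, against 11.8% and 16.8% of genes. H2-DMb1 (18.7 and 14.1 CPM against 2.87 to 7.03) had the largest ratio after H2-Eb1, 3.45, followed by H2-DMa (25.1 and 25.9 against 7.16 to 15.4 CPM) at 2.20.

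Cd74 was at 431.6 and 368.3 CPM at 3 weeks against 179.7 to 279.0 CPM in the others, a ratio of 1.79. H2-Ab1 (197.7 and 178.5 against 77.7 to 156.7 CPM) and Ciita (23.2 and 24.6 against 7.78 to 19.4 CPM) both had ratios of 1.63. H2-Aa overlapped the 6-month libraries, at 193.7 and 271.4 CPM against 151.2 to 324.6 CPM, a ratio of 0.997. Against the control libraries alone the ratios were 0.835 for H2-Aa and 1.36 for H2-Ab1. H2-DMb2 was at 6.71 and 9.83 CPM and H2-Oa at 4 and 1 counts, both within the 6-month range. DMb1 counts per DMb2 count were 2.79 and 1.43 at 3 weeks and 0.531 to 1.04 in the others, with the shared sequence above leaving that split uncertain.

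Cell markers in the 3-week libraries did not follow one pattern. Cd207 was at 19.9 and 32.6 CPM, within 18.8 to 33.8 CPM of the 6-month libraries, and H2-Eb1 per Cd207 count was 6.15 and 3.65 against 0.116 to 0.319. The sum of Langerhans cell markers was 487.8 and 354.0 CPM, above the 233.9 to 349.9 CPM at 6 months, and that of macrophage markers 99.8 and 21.5 CPM, against 18.5 to 38.5 CPM. B cell markers summed to 1.93 and 0.719 CPM. Replicate 2, with endothelial markers at 0.32 CPM (Cdh5, Kdr and Emcn at 0) and fibroblast markers at 17.3 CPM, held as much H2-Eb1 as replicate 1.

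The place of the 2 E genes on chromosome 17 was examined after their values were seen. Among 50 genes that start within 500 kb of the start of H2-Eb1 and average at least 1 CPM, 43 are not among the 10. Their log2 ratios of mean CPM + 0.5, 3 weeks over 6 months, had a median of 0.0024 and ran from -1.75 (H2-Ob) to 2.83 (C4b), while H2-Eb1 was at 4.67 and H2-Ea-ps, which lies 37.1 kb farther on, at -4.14. Of the 43, 5 lay above all 6-month libraries and 3 below, by ratios smaller than those of the E genes. Over all 16997 genes, 41 had a ratio at least as high as H2-Eb1 and 20 one at least as low as H2-Ea-ps, the 2 genes included.

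**Figure D5:**
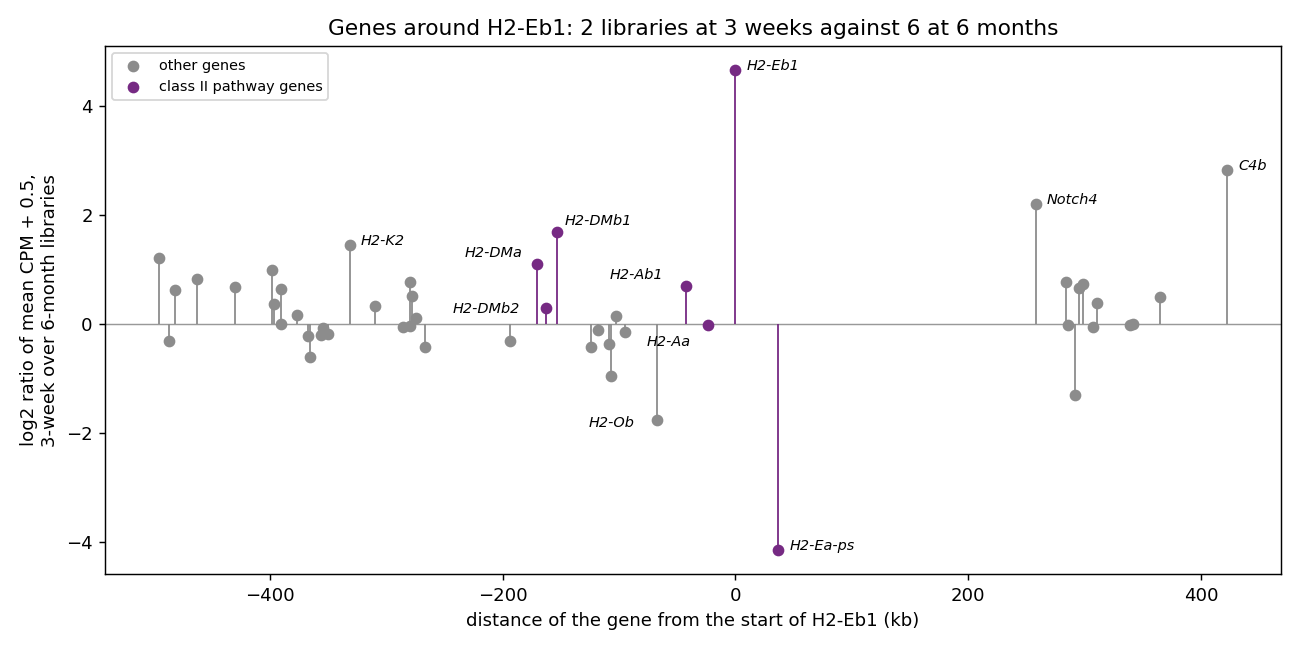
Log2 ratio of mean CPM + 0.5 (2 libraries from 3 weeks over 6 from 6 months) for 50 genes by distance from the start of H2-Eb1, with class II pathway genes in purple. H2-Eb1 (4.67) and H2-Ea-ps (-4.14) are the extremes of this interval, and H2-Aa, just before H2-Eb1, is near 0.

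The genes whose levels ran most like H2-Aa over the 8 libraries, by Pearson correlation of log2(CPM + 0.5), were Kctd6 (0.977), D630008O14Rik (0.937), Gm44283 (0.928), Gm9506 (0.924) and Sdc4 (0.907). For H2-Ea-ps they were Krt71 (0.989), Gm26287 (0.976), Slc27a6 (0.973), Cacybp (0.971) and Ube2e1 (0.971). No class II gene was among either set. Among the 10, H2-Aa correlated at 0.565 with H2-Ab1 and at 0.085 with H2-Eb1, in a range from -0.016 (Ciita) to 0.784 (H2-DMb2). All pairs ran from -0.903 (H2-Eb1 and H2-Ea-ps) to 0.968 (H2-DMa and H2-DMb1), with H2-Oa left out as too low. With 8 libraries in 3 groups these values mostly carry the difference between groups and are given as a description.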

How the data were processed

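Whole-number counts per gene, not normalized, were deposited by the authors, 1 file per sample, per the file headers for 49315 Ensembl gene identifiers with exon coordinates and length. The submitters' processing notes name Trimmomatic 0.36, STAR 2.5.2b and featureCounts of Subread 1.5.2, with no roles or settings, and the builds GRCm38 and GRCh38. Of the identifiers, 49056 (99.5%) were in GENCODE M21 (GRCm38), the source of symbols and gene types. Samples were grouped by their titles. No 2 of the 8 libraries with counts were duplicates by a chi-square comparison. Nothing in the labels says whether samples were separate animals, so p-values measure the spread between these samples.

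The 6-month groups were compared with edgeR 4.0.16 in R 4.3.3 (filterByExpr, TMM, quasi-likelihood F test with robust = TRUE, prior count 2, Benjamini-Hochberg over 17755 genes, threshold 0.05). Standard errors came from the unshrunken coefficient and the F statistic. CPM was computed without TMM factors. Tested on simulated data for this comparison (17250 genes tested, 4-fold changes), the steps called 144 of 193 changed genes (74.61%), all in the right direction, and 12 unchanged ones. The 3-week libraries were compared with no group by a test, since no 3-week control held counts. They entered only the alternative fit of all libraries, in which the 6-month groups were compared. The limit for a count of 0 was set at 3 counts.

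The 10 genes, the pathway and marker lists, and the tests were chosen with earlier results of these data known. Named were all 10 genes, list members past the threshold or else the most abundant, genes at 0, and the 5 genes most correlated with H2-Aa and with H2-Ea-ps. Genes named around H2-Eb1, and fits without control replicates 1 and 2 together or without replicate 1 from 3 weeks, were chosen after seeing the data. Other alternatives were median-ratio factors, total counts, no filter, at least 10 counts in every library, DESeq2 1.42.0, limma-voom (limma 3.58.1), the replicate number as a block, all libraries in one fit, a receptor-gene background subtracted (1422 genes), and each library left out. Some genes of the lists are not reported here.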

Additional observations from a re-analysis of the deposited data

How the results depend on the processing

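With 16 alternatives, the median log2 fold change of the 10 class II genes stayed between -0.78 and -0.48. The number called was 3 with no filter and with DESeq2, 1 with total counts, 0 with all libraries in one fit, 0 without control replicates 1 and 2 together, and 0 to 2 when 1 library was left out, so the 2 calls rest on single libraries. The count over all genes, 2637, became 4809 with no filter, 1548 with all libraries in one fit, 437 without control replicates 1 and 2 together, where the lone control is assumed to vary like the other group, and 668 to 7544 when 1 library was left out. With total counts 1376 genes were higher and 1327 lower, against 1111 and 1526. With no filter the median over all genes was -0.56, next to which the class II median of -0.54 does not stand apart.

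H2-Ab1 lost its call in 7 of 16 alternatives and H2-Ea-ps in 9 of 16, with log2 fold changes of -0.80 to -0.48 and -1.58 to -0.92. Values that turned sign were H2-Eb1 without control replicates 1 and 2 together (0.11), Ciita on leaving out 1 library (-0.43 to 0.11), and Cd207 with total counts (0.0012), no filter (0.041) and on leaving out 1 library (-0.31 to 0.12). None of these had passed the test, and the cause was not tested. Cd83 passed in 15 of 16, March8 and Zbtb46 in 14, Irf1 in 12, and Ctsb, Icosl and Tgfbr2 in 9, while Mrc1 passed in 3 of 14. H2-Oa and Mrc1 had no value with at least 10 counts in every library or with the background subtracted.

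Sample titles give no pairing between the groups. Same-numbered 6-month libraries had deviations correlated at 0.014, -0.17 and -0.064, and differently numbered ones at -0.10 to 0.17. These values show no pairing by replicate number, but with so few libraries they cannot exclude one. With the replicate block 1729 genes and 0 of the 10 class II genes were called, H2-Ab1 at -0.67 (edgeR adjusted p = 0.0504) and H2-Ea-ps at -1.24 (0.0585). Depth limits H2-Oa, at 0 to 15 counts, and H2-Eb1 at 6 months, at 46 to 83.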
